A study of Mus musculus with 20 samples.

Results

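The comparison described here set DPP4+ against DPP4- progenitor cells of inguinal white adipose tissue, the fat depot of the mouse groin, in mice exposed to cold. The cells were PDGFRb+ cells freshly isolated from male C57BL/6 mice and divided by flow cytometry into cells with and without the surface peptidase DPP4. Bulk RNA-seq was made from 4 groups of 5 libraries. DPP4+ and DPP4- cells came from mice kept at 6 °C for 24 h and from mice kept at 22 °C, with no transgene or genetic alteration named in any group. The 10 libraries at 6 °C, of 20 in all, are the subject. The 10 libraries at 22 °C served to find population differences that were present only in the cold, absent in the cold or turned around in the cold. A gene entered when its mean over the 10 cold libraries was at least 10 normalized reads, that is, counts divided by 1 factor per library. This left 12994 genes of 27179. The genes just inside this limit were Lilrb4a, Ppil6 and Slc6a13 with means of 10.01, 10.01 and 10.02, and those just outside were Il12rb2, Adra1a and Kcnab3 with means of 9.99, 9.98 and 9.98. The labels do not say whether a library came from 1 mouse or from pooled mice. P-values therefore measure the spread between these libraries, which may be partly technical.

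Adipose tissue holds several kinds of fibroblast-like progenitor. DPP4+ cells are known as a mesenchymal population of the connective tissue between fat lobules, with Pi16 as a marker. DPP4- progenitors lie closer to adipocytes and vessels, are closer to preadipocytes and are rich in basement membrane genes. Cold activates sympathetic nerves, whose noradrenaline acts on adrenergic receptors and, through cyclic AMP, on the transcription factors CREB and CREM. Thermogenic adipocytes then burn fuel through the uncoupling protein UCP1, and local thyroid hormone, made by the deiodinase encoded by Dio2, adds to this.

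Markers of the populations were apart in the cold. The cells were divided by the DPP4 protein, so the difference of Dpp4 follows from the sort and does not test it. Dpp4 stood at 7871, 10657, 9704, 8675 and 13270.1 normalized reads in the 5 DPP4+ libraries at 6 °C and at 137, 46.4, 37.8, 47.1 and 38.7 in the 5 DPP4- libraries, 164-fold apart (adjusted p = 4.93e-14, limma). Pi16, a peptidase inhibitor gene, stood at 39221 ± 6045 against 235 ± 107 (mean ± SD, n = 5 libraries here and below). Sparcl1, a matrix protein gene of DPP4- cells, stood at 301 ± 23.6 against 23489 ± 1691, and the basement membrane collagen Col4a1 at 18082 ± 1302 against 144835 ± 11951. No library overlapped with the other population for these 4 genes at either temperature. Of the genes shared by adipose progenitors, Ly6a did not pass between the populations in the cold (12174 ± 2015 against 10798 ± 1281, log2 difference 0.17, 95% interval -0.04 to 0.37) as deposited, and with library totals set equal it was higher in DPP4+ cells (0.64, adjusted p = 2.7e-07, limma). Cd34 was higher in DPP4+ cells (10505 ± 3377 against 7446 ± 882, adjusted p = 0.00848, limma), with overlapping libraries. Pdgfrb, the sorted receptor, was 2.74-fold lower in DPP4+ cells in the cold (1505 ± 80.7 against 4124 ± 543) and 1.402-fold lower at 22 °C, where totals set equal ended the call (log2 difference 0.13, adjusted p = 0.21, limma). Pdgfra, the other PDGF receptor, was 2.02-fold lower in DPP4+ cells in the cold (5287 ± 462 against 10676 ± 1323, log2 difference -1.01) but 1.16-fold higher at 22 °C (11512 ± 419 against 9894 ± 641, log2 difference 0.22).

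Libraries of the cold groups held between 11.8 and 17.5 M gene reads in DPP4+ cells and between 8.49 and 18.8 M in DPP4- cells, those at 22 °C between 15.8 and 17.6 M and between 10.95 and 13.4 M. The deposited scaling leaves the normalized totals unequal, between 10.8 and 12.1 M for the DPP4+ and between 15.4 and 16.2 M for the DPP4- group in the cold. With totals set equal the median log2 difference of all genes moves from 0.03 to 0.50 at 6 °C and from 0.03 to 0.64 at 22 °C, and the median of their difference from 0.02 to -0.13. Where a result of a named gene depends on this choice, this is mostly given beside it. DPP4+ replicate 5 at 6 °C stood apart within its group. DPP4- replicate 2 at 6 °C held the highest sum of granulocyte and mast cell markers, 2310 normalized reads against a group median of 81.0, and of macrophage markers, 874 against 255. In DPP4+ libraries at 6 °C the granulocyte sum was 6.73 to 28.3 and the macrophage sum 142 to 230.2. Of 14 lymphocyte markers other than Il1rl1, none passed the limit on low values and their sum was 11.2 to 22.4 in DPP4+ and 13.2 to 85.9 in DPP4- libraries in the cold. Pericyte markers summed to 1528 to 2383 in DPP4+ and 37229 to 45737 in DPP4- libraries, endothelial markers to 6440.1 to 10916 and 3962 to 5064, and Schwann cell markers to 3050 to 4390.2 and 6653 to 7774. The endothelial sum does not stand for each marker. Of 11 tested in the cold, 4 were higher and 6 lower in DPP4+ cells, with a median log2 difference of -1.25. Mesothelial markers summed to 68.8 to 91.2 and 57.6 to 101, markers of epithelium and skeletal muscle to 54.4 to 69.1 and 64.8 to 104, and erythroid markers to 3.29 to 5.98 and 9.41 to 17.5, with Klrg1, Krt5 and Hba-a1 at 0 in all 10 cold libraries. The part of other cells in the results was not tested. In bulk RNA, fewer cells of a type and less RNA per cell cannot be told apart.

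In the cold, 5029 genes were higher in DPP4+ than in DPP4- cells (38.7% of the genes tested) and 4630 were lower (35.6%), 74.3% together at an adjusted p under 0.05 in limma. When totals were set equal, these counts were 8238 and 2438. At 22 °C the populations differed for 74.7%. The groups of 5 libraries did not overlap for 57.3% of genes at 6 °C and for 64.5% at 22 °C. The population difference itself changed with temperature, by the interaction term of the same model, for 33.0% of genes, upward in DPP4+ cells for 2209 and downward for 2082, or for 1146 and 2998 with totals set equal. Most differences kept their side: 7976 genes were called at both temperatures, 7520 in the same direction and 456 in opposite directions. Of these, 233 went from lower in DPP4+ cells at 22 °C to higher at 6 °C and 223 from higher to lower. The interaction passed for each of the 456, which calls in opposite directions make nearly certain. A difference was called at 6 °C only for 956 genes higher and 727 lower in DPP4+ cells, and at 22 °C only for 925 higher and 809 lower. A call at one temperature alone does not show a change, and the interaction passed for 517, 383, 494 and 406 of these.

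**Figure D1:**
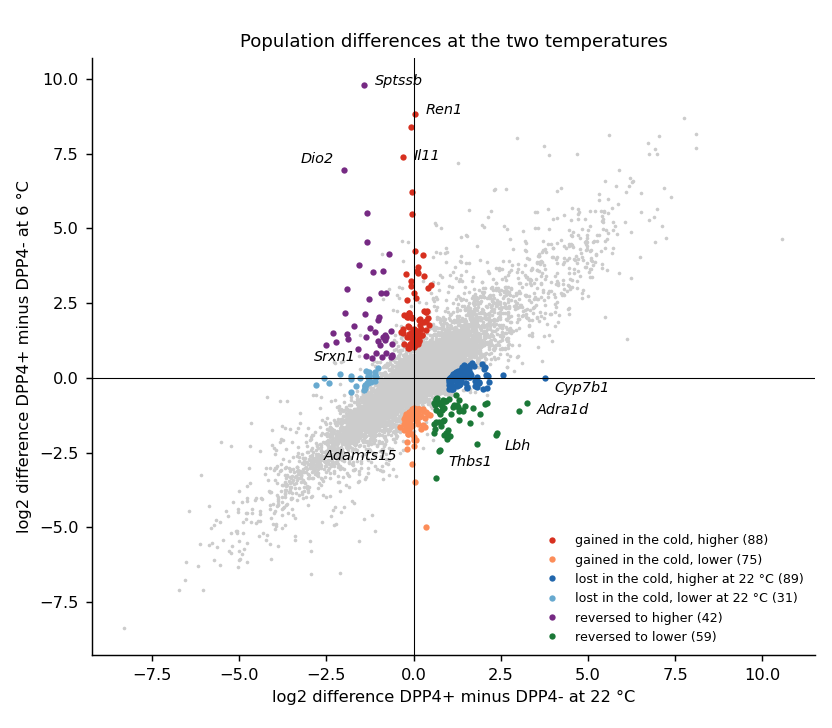
Log2 difference between DPP4+ and DPP4- cells at 22 °C (x axis) and at 6 °C (y axis) for 12994 genes (grey points), with the 384 genes of the 6 classes coloured and their counts in the key. Gained genes lie along the vertical axis, lost genes along the horizontal axis and reversed genes in the upper left and lower right quadrants, with Sptssb at 9.78 at 6 °C and -1.41 at 22 °C.

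Stricter classes were therefore used. A gained gene differed at least 2-fold between the populations at 6 °C, did not pass at 22 °C with a 95% interval inside 2-fold either way, and had an interaction of at least 2-fold that passed. A lost gene met the same limits with the temperatures exchanged. A reversed gene passed at both temperatures in opposite directions, at least 1.5-fold each, with an interaction of at least 2-fold. In the cold, 88 genes were gained with higher levels in DPP4+ cells (0.677% of the genes tested) and 75 with lower levels (0.577%). Another 89 genes were higher in DPP4+ cells at 22 °C and lost that difference (0.685%), and 31 were lower and lost it (0.239%). Reversals ran to higher in 42 genes (0.323%) and to lower in 59 (0.454%). Entry rested on the cold libraries alone, so genes high only at 22 °C could be left out and genes high only in the cold could enter. With the limit set on all 20 libraries the classes held 86, 75, 102, 31, 38 and 68 genes in the same order. Membership of the gained and lost classes depended on the scaling. As deposited, with totals set equal, with TMM and with quantile normalization alike, 6, 2, 10 and 4 genes of the gained and lost classes (in the order above) and 18 and 23 of the reversed classes stayed in their class throughout, 63 of 384.

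The change lay mostly within DPP4+ cells. Over all genes, the cold effect passed for 45.9% in DPP4+ and for 5.27% in DPP4- cells. Among the 384 class genes it passed for 366 in DPP4+ and for 42 in DPP4- cells, and it was the larger of both in DPP4+ cells for 362. These counts rest on the libraries that chose the genes and are a description only. Of the 88 genes gained with higher levels, 83 rose in DPP4+ cells and 12 fell in DPP4- cells, and of the 75 gained with lower levels, 73 fell in DPP4+ cells and 4 rose in DPP4- cells. All 42 genes reversed to higher rose in DPP4+ cells and all 59 reversed to lower fell there. DPP4+ replicate 5 at 6 °C was the library of its group nearest to the 22 °C mean of DPP4+ cells for 206 of the 384 class genes, among them 80 of the 88 gained with higher levels and 40 of the 42 reversed to higher. It was nearest for 21 of the 89 lost from higher and 14 of the 59 reversed to lower. There replicate 1 was nearest more often, for 36 and 22. Without DPP4+ replicate 5 at 6 °C the 6 classes, in the order above, held 89, 68, 80, 36, 47 and 61 genes in place of 88, 75, 89, 31, 42 and 59. Without DPP4- replicate 2 at 6 °C they held 95, 69, 98, 32, 42 and 66.

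**Figure D2:**
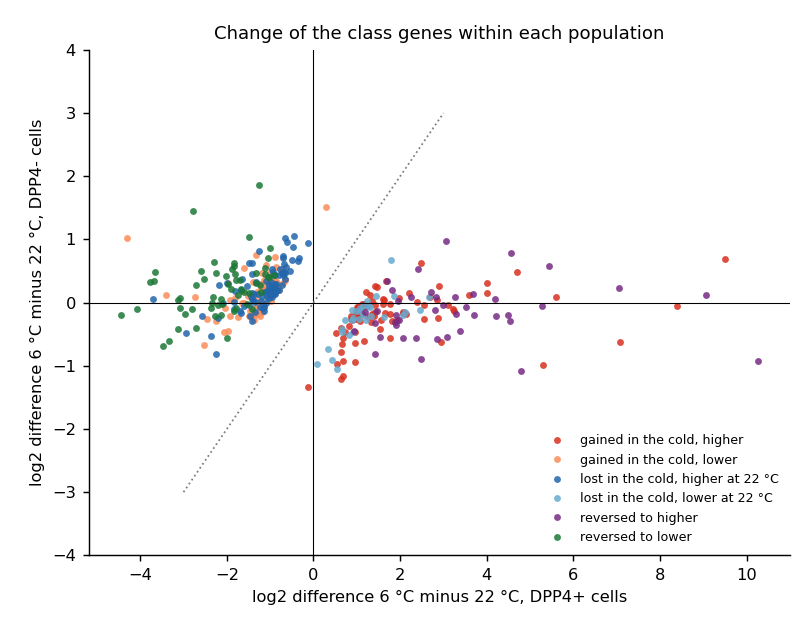
Log2 difference between 6 °C and 22 °C within DPP4+ cells (x axis) and within DPP4- cells (y axis) for the 384 class genes, coloured by class, with equal change on the dotted line. The points spread along the horizontal axis, from -4.45 for Lbh to 10.26 for Sptssb, and stay mostly within 1 of 0 on the vertical axis.

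Genes that turned from lower to higher in DPP4+ cells included enzymes, a protease and an alarmin. Sptssb, a small subunit of serine palmitoyltransferase, which starts sphingolipid synthesis, stood at 1422, 1206, 1284, 1408 and 880.3 normalized reads in DPP4+ cells at 6 °C. It had no read in any of the 5 DPP4+ libraries at 22 °C. In DPP4- cells it stood at 0, 0, 0, 1.88 and 0.823 at 6 °C and 4.05, 0, 6.298, 0 and 2.57 at 22 °C. Every DPP4+ library in the cold was thus far above all other 15 libraries, and the reversal rests on a few reads in DPP4- cells at 22 °C. With few reads in DPP4- cells, the ratio at 6 °C was 2292 with a 95% counting interval of 674 to 20103, which covers counting error only. Without DPP4- replicate 4 at 6 °C, which held 1 of those 2 reads, it was 6027. Set against a limit of 3 reads in all 5 libraries together, Sptssb was at least 3081-fold higher in DPP4+ cells at 6 °C than at 22 °C. By the same limit it was 6.42-fold lower in DPP4+ than in DPP4- cells at 22 °C. That ratio rests on 10 reads in DPP4- cells, and the log2 difference was -1.41 (95% interval -2.34 to -0.48).

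Dio2, the deiodinase that converts thyroxine to active thyroid hormone, stood at 6607, 5360.5, 5430.4, 5687 and 3476 in DPP4+ cells and 44.2, 92.7, 39.1, 43.3 and 17.3 in DPP4- cells at 6 °C, 112-fold higher (log2 difference 6.94 ± 0.41 SE, adjusted p = 2.08e-11, limma). At 22 °C it stood at 5.597, 15.7, 5.79, 6.89 and 13.8 in DPP4+ and 17.6, 36.03, 27.7, 73.7 and 59.2 in DPP4- cells, 4.48-fold lower (log2 difference -1.997 ± 0.41 SE, adjusted p = 0.000259, limma). The populations did not overlap at either temperature. The interaction was 8.93 (adjusted p = 1.61e-09, limma), and with totals set equal the differences were 7.400 and -1.43.

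Promoter windows were searched because the cold signal is known to reach genes through cyclic AMP. The cyclic AMP response element is the palindrome TGACGTCA, bound by CREB and CREM. Windows ran from 250 bases before to 50 bases after the gene start (RefSeq sequence, build GRCm38.p6). The element is in capitals in the 250 bases before the start of 2 genes, each 5′ to 3′ on the gene's strand. The stretch of Dio2 is at chr12:90739039-90739288, minus strand, and went from lower to higher in DPP4+ cells. Fscn1, which encodes the actin-bundling protein fascin, is at chr5:142960105-142960354, plus strand, went from higher to lower, and was chosen for this contrast after its values were seen.
Dio2: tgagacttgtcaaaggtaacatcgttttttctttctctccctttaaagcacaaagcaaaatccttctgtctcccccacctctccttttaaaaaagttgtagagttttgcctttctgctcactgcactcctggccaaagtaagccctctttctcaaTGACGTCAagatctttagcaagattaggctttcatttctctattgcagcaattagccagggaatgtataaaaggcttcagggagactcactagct
Fscn1: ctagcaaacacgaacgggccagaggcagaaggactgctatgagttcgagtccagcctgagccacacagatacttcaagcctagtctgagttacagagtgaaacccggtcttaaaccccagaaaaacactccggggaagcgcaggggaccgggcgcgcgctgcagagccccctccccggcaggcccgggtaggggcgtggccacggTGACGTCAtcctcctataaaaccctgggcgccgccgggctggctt
The element lies 95 to 88 bases before the start of Dio2 and 45 to 38 bases before that of Fscn1. Fscn1 stood at 997, 865, 835, 885 and 559 in DPP4+ and 1227, 1575, 1795, 1703 and 1739 in DPP4- cells at 6 °C, and at 3529 ± 341 against 1613 ± 127 at 22 °C (log2 difference -0.97 and 1.13, adjusted p = 3.74e-07 and 3.93e-08, limma). The same letters thus stand in a promoter of a gene that rose and of one that fell in DPP4+ cells. Fscn1 did not keep its class under all 4 scalings. A promoter was found for 272 of the 384 class genes and for 10078 genes tested. The element was in 14 of the 272 windows (5.15%), in 3.61% of the windows of genes tested and in 2.03% of all 27025 windows. By class it was in 3 of 60 genes gained higher and 1 of 54 gained lower, 4 of 64 lost from higher and 2 of 21 lost from lower, and 1 of 30 reversed to higher and 3 of 43 reversed to lower. The AP-1 site TGANTCA was in 8.09% of class windows and 6.25% of windows of genes tested, the steroid receptor core site TGTTCT in 12.5% and 14.1%, and the TEAD site CATTCC in 17.6% and 14.5%, each on both strands. A match describes the letters and not binding.

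Il33, an alarmin cytokine that acts on innate lymphocytes and is known in adipose stroma, stood at 5966, 5351, 5183, 5704 and 4229 in DPP4+ cells and 1775, 2890.4, 1794, 2780.1 and 1353 in DPP4- cells in the cold, 2.495-fold higher (adjusted p = 4.63e-06, limma). At 22 °C it was 1.75-fold lower (1121 ± 159 against 1962 ± 478, adjusted p = 0.00154, limma). The libraries of both populations were apart at both temperatures. On equal totals, the difference at 22 °C no longer passed (-0.17, adjusted p = 0.424, limma), so that Il33 then counted as gained. The mitochondrial carrier gene Ucp2 stood at 297, 228, 218, 233 and 158 against 42.9, 166, 86.4, 90.3 and 102 in the cold (adjusted p = 0.000115, limma) and at 22.5 ± 4.92 against 85.5 ± 19.3 at 22 °C. Its cold libraries overlapped, since DPP4- replicate 2 held more than DPP4+ replicate 5.

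Tll1, a tolloid metalloprotease that processes procollagens, went from 2.39-fold lower to 6.21-fold higher (1249 ± 183 against 201 ± 28.5 at 6 °C, 95.9 ± 23.1 against 229 ± 22.8 at 22 °C). Liph, a lipase that makes the signal lipid lysophosphatidic acid, stood at 118 ± 23.5 against 14.2 ± 3.11 in the cold and 2.08 ± 1.67 against 9.93 ± 4.21 at 22 °C. Adamtsl2, a secreted protein that binds fibrillin microfibrils, stood at 119 ± 28.2 against 41.3 ± 5.22 and 20.6 ± 6.47 against 80.1 ± 22.04. The chaperone Hsph1 stood at 5514 ± 957 against 3518 ± 914 and 1028 ± 59.03 against 2422 ± 521. It left the class without DPP4- replicate 5 at 6 °C, where its log2 difference in the cold was 0.52 in place of 0.67. Each of these 4 genes passed at both temperatures. Tll1 and Adamtsl2 had no overlapping libraries at either temperature, while those of Liph overlapped at 22 °C and those of Hsph1 at 6 °C. Csf1r, the receptor of the macrophage growth factor CSF1, also reversed (88.4 ± 17.8 against 36.1 ± 22.9 at 6 °C, 31.996 ± 2.93 against 58.2 ± 13.8 at 22 °C). Macrophage markers as a list had 1 of 8 higher and 4 lower in DPP4+ cells in the cold, and the 1 was Csf1r. With totals set equal it counted as gained, since its difference at 22 °C was -0.21 (adjusted p = 0.441, limma).

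**Figure D3:**
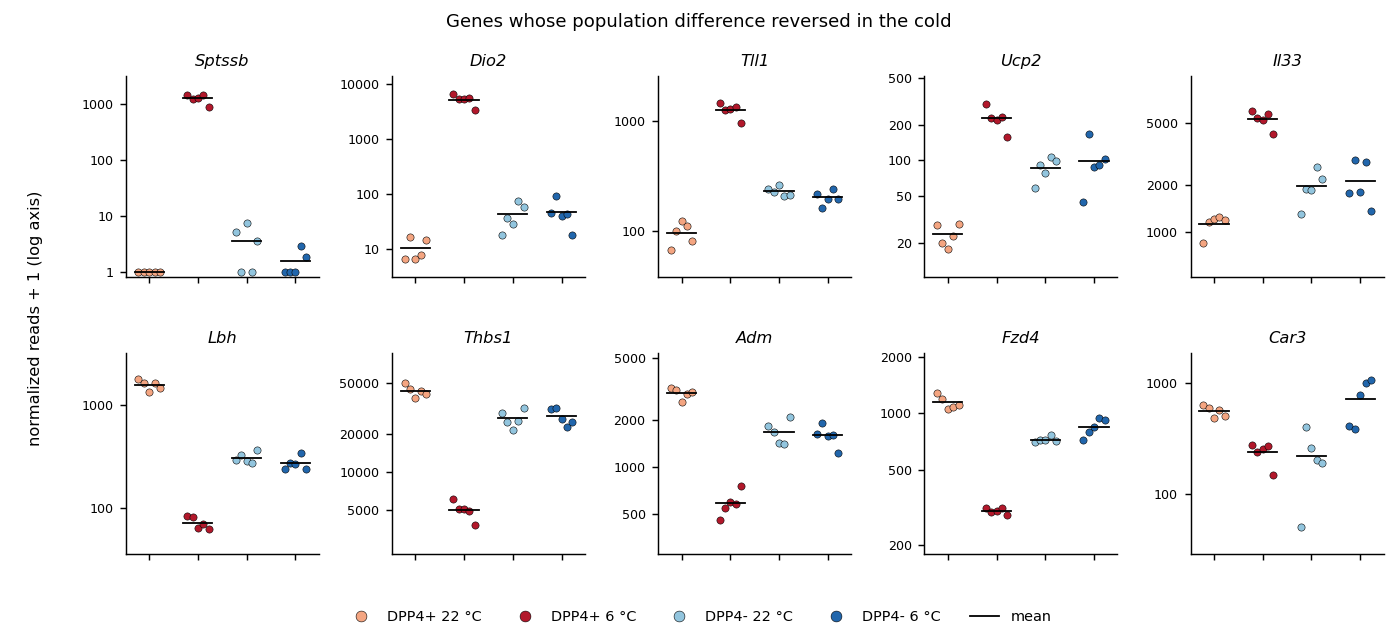
Normalized reads plus 1 (log axis, 1 point per library, 5 per group, bar at the mean) of 5 genes that reversed to higher (top) and 5 that reversed to lower (bottom) in DPP4+ cells. The DPP4+ libraries at 6 °C (dark red) lie above DPP4- cells in the top row and below them in the bottom row, except that Ucp2 overlaps, and DPP4+ libraries at 22 °C (light red) lie on the other side, except that Sptssb shares values of 0.

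Genes that turned from higher to lower in DPP4+ cells included matrix, vessel and Wnt pathway genes. Lbh, a transcription cofactor, stood at 81.9, 79.6, 62.1, 67.4 and 61.3 normalized reads in DPP4+ and 237, 271, 263, 337 and 234 in DPP4- cells at 6 °C, 3.81-fold lower (log2 difference -1.91 ± 0.11 SE, adjusted p = 9.38e-14, limma). At 22 °C it stood at 1779, 1639, 1316, 1641 and 1439.6 against 292, 323, 279.6, 272 and 359, 5.13-fold higher (log2 difference 2.35 ± 0.11 SE, adjusted p = 2.48e-15, limma). The change within DPP4- cells did not pass (-0.19 on the log2 scale, adjusted p = 0.336, limma), while DPP4+ libraries went from above to below them.

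Thbs1, which encodes the matricellular protein thrombospondin, stood at 6061, 5129, 5096, 4927 and 3817 in DPP4+ and 31218, 32180.5, 26150.3, 22638 and 24694 in DPP4- cells in the cold, 5.47-fold lower (adjusted p = 1.04e-14, limma). At 22 °C it was 1.65-fold higher in DPP4+ cells (43776 ± 4562 against 26493 ± 4167, adjusted p = 9.43e-06, limma). Adm, which encodes the vasodilator peptide adrenomedullin, stood at 458, 546, 595, 582 and 753 against 1629, 1921, 1578, 1607 and 1229 in the cold and 2976 ± 235 against 1683 ± 285 at 22 °C (log2 difference -1.44 and 0.83). The libraries did not overlap for either gene at either temperature, and both kept the class under all 4 scalings. The alpha-1D adrenergic receptor gene Adra1d stood at 21.6, 14.5, 15.5, 16.2 and 12.7 against 25.5, 24.5, 32.4, 20.7 and 51.9 in the cold, with overlapping libraries, and at 262, 240.3, 203, 224 and 227 against 22.96, 37.5, 28.97, 16.9 and 15.4 at 22 °C. When totals were set equal, its difference in the cold no longer passed (-0.404, adjusted p = 0.118, limma), and the gene then counted as lost. Pth1r, the receptor of parathyroid hormone, stood at 102 ± 16.3 against 219 ± 57.5 at 6 °C and 365 ± 34.7 against 138 ± 19.5 at 22 °C.

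The Wnt receptor gene Fzd4 stood at 314, 298, 302, 313 and 287 in DPP4+ and 723, 798, 845, 941 and 918 in DPP4- cells in the cold (log2 difference -1.47, adjusted p = 1.7e-15, limma), and at 1142 ± 94.7 against 722 ± 23.4 at 22 °C (log2 difference 0.66). Its 5 DPP4+ libraries in the cold lay below every other library. The Wnt inhibitors Dkk2 (419 ± 70.99 against 735 ± 172 at 6 °C, 1664 ± 91.96 against 1068 ± 156 at 22 °C) and Nkd2 (35.7 ± 6.99 against 100.5 ± 22.6, 159 ± 14.7 against 94.9 ± 12.6) turned the same way. Each left the class under 1 scaling by a difference under 1.5-fold, Dkk2 with totals set equal (-0.33 in the cold) and Nkd2 with quantile normalization (0.52 at 22 °C). Nrp2, a semaphorin and VEGF co-receptor, stood at 152 ± 8.13 against 308 ± 61.4 in the cold and 514 ± 41.01 against 284 ± 56.9 at 22 °C, and the matrix protease Mmp11 at 103 ± 8.72 against 213 ± 72.5 and 406 ± 43.02 against 169 ± 46.3. After totals were made equal, both still differed in opposite directions (-0.53 and 1.48, -0.52 and 1.895), but under 1.5-fold in the cold. Tns3, a focal adhesion protein, went from 2.095-fold higher to 2.38-fold lower, Cdc42ep3, an effector of the GTPase CDC42, from 2.42-fold to 2.79-fold, and Trim66, a chromatin protein, from 3.73-fold to 2.37-fold. These 3 genes passed at both temperatures with no overlap. Keeping the class under all 4 scalings was a condition for naming them.

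A pair of adipocyte enzyme genes reversed in the same direction. Car3, a carbonic anhydrase abundant in fat, stood at 273, 237, 251, 270.3 and 146 in DPP4+ and 405, 383, 776, 986 and 1053 in DPP4- cells at 6 °C and at 634, 598, 484, 570.0 and 502 and 48.6, 399, 257, 201 and 189 at 22 °C. Its level went down within DPP4+ cells (-1.27 on the log2 scale, adjusted p = 0.0205, limma) and up in DPP4- cells (1.86, adjusted p = 0.0157, limma), with a wide spread among DPP4- libraries. Gpd1, which makes the glycerol backbone of fat, stood at 25.03 ± 6.62 against 61.6 ± 30.2 in the cold and 49.8 ± 3.07 against 30.3 ± 8.59 at 22 °C. Its change within DPP4- cells, 0.87 on the log2 scale, did not pass (adjusted p = 0.0962, limma). The call of Gpd1 at 22 °C (adjusted p = 0.0317, limma) was lost without DPP4- replicate 1 (0.0944), DPP4- replicate 2 (0.063) or DPP4+ replicate 1 (0.0591) at 22 °C, and with quantile normalization (0.212).

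Genes within the class limits of no difference at 22 °C and higher in DPP4+ cells in the cold included secreted hormones and cytokines. Ren1, which encodes renin, the protease that starts angiotensin formation, stood at 1151, 895, 912, 975 and 597 normalized reads in DPP4+ and 1.34, 5.45, 0, 0 and 0.823 in DPP4- cells in the cold, 595-fold higher (log2 difference 8.84 ± 0.42 SE, adjusted p = 4.17e-15, limma). That ratio rests on 6 reads in DPP4- cells, with a 95% counting interval of 273 to 1621, and was 1675 without DPP4- replicate 2. Ren1, like Sptssb and Ramp3, passed the limit on low values only through its DPP4+ libraries in the cold. At 22 °C no library held more than 1.501, from 2 reads in DPP4+ and 1 in DPP4- cells, too few for a ratio. Il11, a cytokine of the IL-6 family known for its action on fibroblasts, stood at 3569, 2988, 3041, 3345 and 1940.1 against 26.8, 16.4, 21.6, 13.2 and 9.05 in the cold, 171-fold higher (log2 difference 7.396 ± 0.22 SE, adjusted p = 3.52e-18, limma). At 22 °C it stood at 20.9 ± 3.6995 against 25.9 ± 4.96. Both were high in the 5 cold DPP4+ libraries and low in the other 15. Ramp3, which pairs with the adrenomedullin and calcitonin receptors, stood at 1020.3, 861, 819, 1010.5 and 532 against 1.34, 2.73, 2.699, 1.88 and 0 in the cold and under 5 in all libraries at 22 °C. Levels at 22 °C were low, and the 95% interval of the difference there, -0.83 to 0.91 for Ren1 and -0.99 to 0.85 for Ramp3 on the log2 scale, came close to the limit of the class. Leaving out 1 library took Ren1 out of the class in 5 cases of 20 and Ramp3 in 16 of 20, with the interval at 22 °C reaching 1.17 for Ren1 (without DPP4- replicate 2) and -1.29 for Ramp3 (without DPP4- replicate 1). The other cases for Ren1 were DPP4+ replicates 1, 3, 4 and 5 at 22 °C. The call at 6 °C and the interaction of both genes passed in all 20. Ramp3 also left the class with totals set equal and with TMM. With edgeR on the recovered reads the interaction of Ren1 did not pass (adjusted p = 0.0822).

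Il1rl1, which encodes the receptor of IL-33, stood at 14220.5, 12191, 11913, 13161 and 8976 in DPP4+ and 1241, 1208, 783, 1137 and 932 in DPP4- cells in the cold, 11.4-fold higher (log2 difference 3.51, adjusted p = 1.32e-12, limma). At 22 °C the populations stood at 1291 ± 317 and 1154 ± 173 (log2 difference 0.13, 95% interval -0.25 to 0.51). On equal totals, the difference at 22 °C passed (0.74, adjusted p = 0.000767, limma), against 3.98 in the cold. The receptor and its ligand Il33 were thus both higher in DPP4+ cells in the cold. Il1rl1 is also a marker of lymphoid cells. Their other markers summed to at most 22.4 in DPP4+ and 85.9 in DPP4- libraries in the cold. At 22 °C these sums reached 31.1 in DPP4+ and 33.8 in DPP4- libraries. The part of lymphoid cells in the values of Il1rl1 was not tested. The chemokine gene Ccl2 stood at 9634, 13087, 12335, 12643 and 18019 against 11008, 13270.0, 8446, 8935 and 7936, with overlapping libraries (adjusted p = 0.0342, limma). That call was lost when any 1 of 5 libraries was left out, DPP4+ replicate 2 or 5 or DPP4- replicate 3, 4 or 5 (adjusted p from 0.0555 to 0.121), with no filter on low values (0.068) and with sample weights (0.0676), and the interaction did not pass (0.28, 95% interval -0.21 to 0.77).

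Of the genes of cyclic AMP signalling, Crem and Pde4d were gained with higher levels in DPP4+ cells. Crem, a cyclic AMP-responsive transcription factor that cyclic AMP itself induces, stood at 1657, 1391, 1438, 1515 and 1020.1 against 121, 215, 144, 152 and 110.3 in the cold and 150.3 ± 28.3 against 155 ± 18.5 at 22 °C (log2 difference 3.25 and -0.06). Pde4d, a phosphodiesterase that breaks cyclic AMP down, stood at 2574, 2088, 2043, 2201 and 1351 against 159.5, 229, 146, 213 and 165 and 126 ± 21.5 against 146 ± 27.8 (log2 difference 3.48 and -0.21). DPP4+ cells held 9.45 times as much Crem and 11.3 times as much Pde4d as DPP4- cells in the cold, with no overlap. With totals set equal both were already higher in DPP4+ cells at 22 °C, by 0.55 and 0.398 (log2), and left the class. With quantile normalization Pde4d was lower in DPP4+ cells at 22 °C (-0.45, adjusted p = 0.0289, limma) and left the class as well, so its direction at 22 °C depends on the scaling. Ppargc1a, the coactivator of mitochondrial and thermogenic genes, was gained in the other direction (6.04, 8.55, 5.83, 4.26 and 4.49 against 20.1, 19.1, 31.04, 13.2 and 14.8 in the cold, 13.02 ± 3.61 against 15.4 ± 4.302 at 22 °C, interaction -1.34, adjusted p = 0.0074, limma). Its cold groups were apart, and with totals set equal its difference was -1.15 in the cold and 0.34 at 22 °C. Adrb3, the beta-3 adrenergic receptor of adipocytes, was under the limit on low values in the cold, at 1.72, 1.97, 0, 0.853 and 0.748 in DPP4+ and 2.68, 4.09, 6.75, 13.2 and 14.8 in DPP4- cells, and was not tested. At 22 °C it stood at 103, 98.2, 78.9, 88.3 and 93.1 against 4.05, 7.51, 3.78, 9.21 and 2.57. The order of the populations was thus opposite at 6 and 22 °C, with no overlap at either. Ucp1 stood at 81.1, 63.8, 45.6, 56.3 and 52.4 in DPP4+ and 5.36, 8.18, 8.098, 5.65 and 23.04 in DPP4- cells in the cold (adjusted p = 1.25e-06, limma) and at no more than 1.45 in any library at 22 °C. Its interaction passed (2.06, adjusted p = 0.00457, limma), but the interval at 22 °C (-0.22 to 1.35) was too wide for the class. The interaction of Ucp1 did not pass with edgeR or DESeq2 on the recovered reads (adjusted p = 0.768 and 0.392).

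Other named genes gained with higher levels in DPP4+ cells included some of the matrix and the cell surface. Vcan, which encodes the large proteoglycan versican, stood at 32524, 27457, 27827, 26951 and 19389.5 against 5604, 5329.6, 4660.5, 7433 and 6750.4 in the cold and 7856 ± 615 against 8659 ± 698 at 22 °C, and its level also fell in DPP4- cells in the cold (log2 difference -0.56, adjusted p = 0.00811, limma). Hapln4, a link protein of hyaluronan and proteoglycans, stood at 70.7 ± 17.1 against 16.8 ± 4.92 in the cold and 14.6 ± 2.91 against 15.2 ± 4.49 at 22 °C. Spon2, a secreted matrix protein, stood at 3573 ± 634 against 852 ± 309 in the cold and 669.7 ± 46.4 against 809 ± 100.5 at 22 °C. Efnb2, a membrane ligand of Eph receptors known from arteries, stood at 1221, 1153, 1099, 1080.4 and 731 against 309.7, 517, 247, 418 and 182 in the cold and 540.4 ± 40.5 against 611 ± 115 at 22 °C. It rose within DPP4+ cells (by 0.95 on the log2 scale, adjusted p = 0.00154, limma) and fell in DPP4- cells (-0.94, adjusted p = 0.0168, limma). Spon2 and Efnb2, like Ren1 and Il11, were named because they kept the class under all 4 scalings. When totals were set equal, Vcan and Hapln4 were already higher in DPP4+ cells at 22 °C (0.47 and 0.54) and left the class, while their differences in the cold were 2.64 and 2.47. Synpo2, an actin-binding muscle protein, stood at 262 ± 42.7 against 103 ± 26.4 in the cold and 108 ± 12.8 against 119 ± 10.7 at 22 °C, where it too was higher on equal totals (0.47, adjusted p = 0.00554, limma) but lower with quantile normalization (-0.399, adjusted p = 0.00961).

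Signal pathway genes were gained as well. Notch2, a Notch receptor, stood at 7352 ± 367 against 3469 ± 251 in the cold and 3700.0 ± 411 against 3622 ± 279.8 at 22 °C. The Wnt receptor Fzd1 stood at 1631 ± 266 against 720.5 ± 81.5 and 868 ± 37.5 against 871 ± 50.9. The growth factor Tgfb1 stood at 655 ± 112 against 292 ± 33.5 and 358 ± 20.03 against 349.8 ± 16.97, and Bambi, a decoy receptor of its family, at 255 ± 35.9 against 84.04 ± 9.13 and 98.3 ± 6.59 against 96.3 ± 16.4. In each of these the cold groups did not overlap and the difference at 22 °C was between -0.003 and 0.04 on the log2 scale. After totals were made equal, these 4 genes were higher in DPP4+ cells at 22 °C too, by 0.61 to 0.65 (log2), and left the class, with differences of at least 1.55 in the cold.

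Metabolic and stress genes gained in the same direction were Dgat1, which completes triglyceride synthesis (2498, 2089.5, 2116, 2297 and 1395 against 353, 322, 296, 250.3 and 226 in the cold, 282 ± 9.23 against 278 ± 24.5 at 22 °C), and Ddit4, an inhibitor of mTORC1 (2374, 1876, 1899, 2057 and 1238 against 154, 119, 181, 143 and 184, 154 ± 16.5 against 146 ± 37.97). Replicate 5 was the lowest cold DPP4+ library for both and still lay above every DPP4- library. Gsta4, a glutathione transferase of lipid aldehydes, stood at 225 ± 49.6 against 20.1 ± 5.19 and 29.3 ± 4.03 against 23.8 ± 4.23. Pmvk, a mevalonate pathway kinase, stood at 547 ± 89.2 against 157 ± 66.2 in the cold and 201 ± 14.6 against 167 ± 41.04 at 22 °C. On equal totals, these 4 genes were higher in DPP4+ cells at 22 °C too, by 0.63 to 0.898 (log2), and left the class, with differences of 2.34 to 4.04 in the cold.

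Fewer named genes were gained with lower levels in DPP4+ cells. Adamts15, a protease of versican and other proteoglycans, stood at 156, 143, 178, 169.7 and 233 in DPP4+ and 772, 837, 1054, 915 and 1013 in DPP4- cells in the cold, 5.22-fold lower (log2 difference -2.39, adjusted p = 6.71e-14, limma), and at 956 ± 88.1 against 1100.5 ± 167 at 22 °C. Acvr2a, an activin receptor, stood at 468, 445, 451, 410.2 and 391 against 1089, 948, 1194, 1069 and 1179 in the cold and 806 ± 64.7 against 873 ± 45.8 at 22 °C. Its level fell within DPP4+ cells (-0.89 on the log2 scale, adjusted p = 1.91e-10, limma) and rose in DPP4- cells (0.32, adjusted p = 0.0073, limma). Abcg1, a cholesterol exporter, stood at 25.7 ± 5.35 against 88.1 ± 20.2 in the cold and 59.1 ± 11.9 against 71.02 ± 9.84 at 22 °C. The cold groups of all 3 genes were apart. Their difference at 22 °C passed for Acvr2a without DPP4+ replicate 1 (-0.16, adjusted p = 0.0425, limma) and for Adamts15 without DPP4- replicate 5 (-0.27, adjusted p = 0.0432, limma) at 22 °C. With totals set equal, Acvr2a and Adamts15 were higher in DPP4+ cells at 22 °C (0.49 and 0.42) and lower in the cold (-0.87 and -1.92). With quantile normalization Abcg1 was lower at 22 °C too (-0.61, adjusted p = 0.00241, limma) and left the class.

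**Figure D4:**
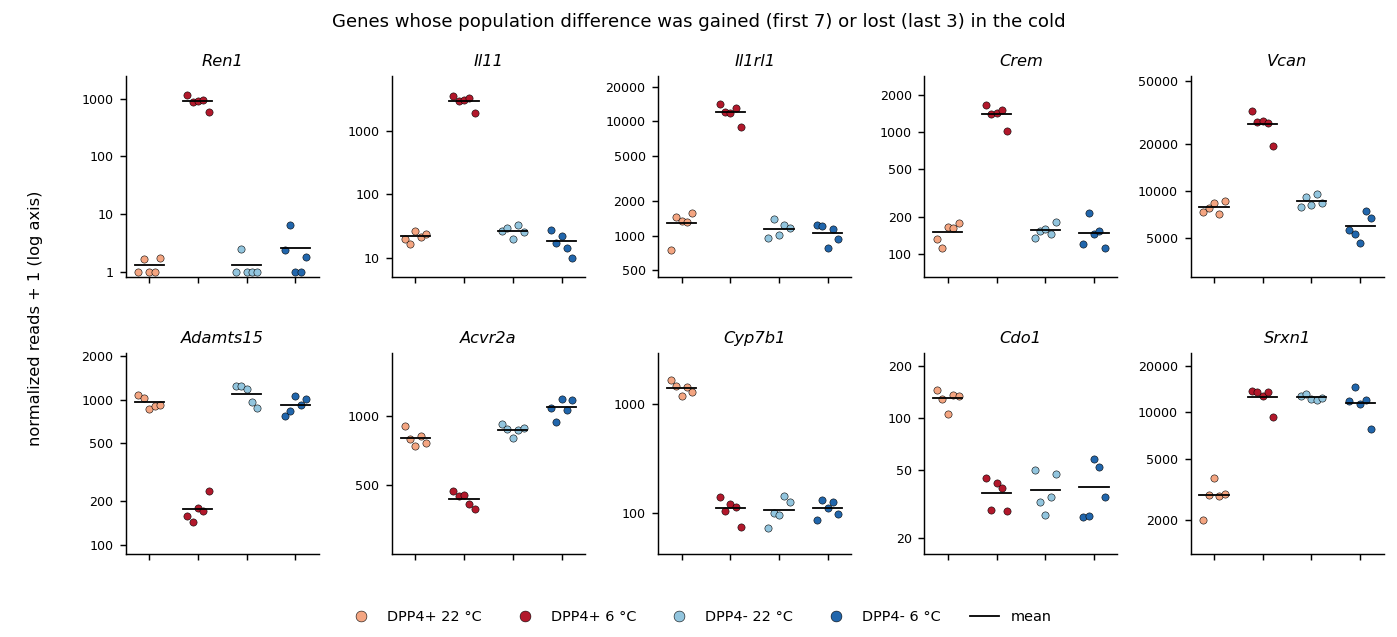
Normalized reads plus 1 (log axis, 1 point per library, 5 per group, bar at the mean) of 7 genes whose population difference was gained in the cold (Ren1 to Acvr2a) and 3 whose difference was lost (Cyp7b1, Cdo1 and Srxn1). For gained genes the DPP4+ libraries at 6 °C (dark red) stand apart from the other 15, and for lost genes the DPP4+ libraries at 22 °C (light red) do.

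Genes higher in DPP4+ cells at 22 °C that reached the level of DPP4- cells in the cold included enzymes of sterol, sulfur and folate metabolism. Cyp7b1, an oxysterol hydroxylase, stood at 1680.2, 1492, 1197, 1450.0 and 1304 normalized reads in DPP4+ and 71.6, 97.6, 93.2, 141 and 125 in DPP4- cells at 22 °C, 13.5-fold higher (adjusted p = 2.39e-14, limma). In the cold the libraries overlapped at 137, 103, 120.4, 113 and 73.3 against 84.5, 129.5, 109, 124 and 95.5 (log2 difference -0.004, 95% interval -0.36 to 0.35). When totals were set equal, the difference in the cold was 0.46 (adjusted p = 0.027, limma), against 4.38 at 22 °C. Cdo1, a cysteine dioxygenase, stood at 43.99, 28.3, 40.8, 38.4 and 27.7 against 25.5, 25.9, 56.7, 50.8 and 33.7 in the cold and 143, 128, 104, 135 and 132 against 48.6, 31.5, 26.5, 33.8 and 46.3 at 22 °C. Aldh1l1, a folate enzyme, stood at 77.1 ± 15.02 against 91.1 ± 39.3 in the cold and 205 ± 11.4 against 82.8 ± 23.6 at 22 °C. The DNA repair gene Brca2 stood at 30.4 ± 6.08 against 34.2 ± 9.08 in the cold and 124 ± 16.6 against 26.6 ± 2.56 at 22 °C, a log2 difference of 2.17 at 22 °C and -0.15 (95% interval -0.51 to 0.21) in the cold. Cdo1, Aldh1l1 and Brca2 were named because they kept the class under all 4 scalings.

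Pik3ip1, an inhibitor of PI3 kinase, stood at 45.7, 79.6, 66.02, 52.02 and 117 against 73.7, 99.5, 64.8, 67.8 and 79.8 in the cold and 174 ± 19.7 against 60.9 ± 9.03 at 22 °C. DPP4+ replicate 5 was the highest cold library, and without it the difference in the cold passed in the other direction than at 22 °C (-0.35, adjusted p = 0.0432, limma). Vegfb, a growth factor of the VEGF family, stood at 137 ± 28.3 against 120.0 ± 24.5 in the cold and 231 ± 23.4 against 82.4 ± 16.2 at 22 °C. Its level fell in DPP4+ cells (-0.77, adjusted p = 0.000238, limma) and rose in DPP4- cells (0.54, adjusted p = 0.0412, limma). The Wnt receptor Fzd8 stood at 105 ± 12.3 against 93.8 ± 7.56 in the cold and 232 ± 12.6 against 102 ± 4.79 at 22 °C, and Klf15, a transcription factor of adipocyte differentiation, at 41.9 ± 13.95 against 43.8 ± 16.002 and 78.3 ± 10.3 against 38.6 ± 9.66. Both are near the 2-fold limit (interaction -1.02 and -1.06). Fzd8 left the class without DPP4+ replicate 3 or DPP4- replicate 2 or 3 at 6 °C or DPP4+ replicate 5 or DPP4- replicate 4 at 22 °C, where the interaction was -0.99 to -0.94 on the log2 scale, and without DPP4+ replicate 3 its difference in the cold passed (0.23, adjusted p = 0.019, limma). Klf15 left it without DPP4+ replicate 2 or DPP4- replicate 3 or 5 at 6 °C or DPP4+ replicate 1 or DPP4- replicate 4 or 5 at 22 °C, where the interaction or the difference at 22 °C fell under 2-fold, with an interaction of -1.02 to -0.90. With quantile normalization the interaction of Klf15 did not pass (-0.84, adjusted p = 0.0568, limma). After totals were made equal, Vegfb and Fzd8 were higher in DPP4+ cells in the cold as well (0.65 and 0.62) and left the class.

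Genes lower in DPP4+ cells at 22 °C that reached DPP4- cells in the cold included antioxidant genes of the NRF2 program. Srxn1, which encodes sulfiredoxin, stood at 2004, 2936, 3772, 2892 and 2959 in DPP4+ and 12644, 13071, 12242, 12017 and 12336 in DPP4- cells at 22 °C, 4.28-fold lower (adjusted p = 4.46e-11, limma). In the cold it stood at 13784, 13561, 12639, 13425 and 9351 against 11816, 14467, 11344, 12033 and 7733 (log2 difference 0.14, 95% interval -0.17 to 0.46). On equal totals, it was higher in DPP4+ cells in the cold (0.61, adjusted p = 0.00069, limma) and counted as reversed. Txnrd1, a thioredoxin reductase, stood at 9271 ± 1194 against 10886 ± 1585 in the cold and 4419 ± 698 against 11513 ± 979.8 at 22 °C. Its difference in the cold (-0.23, adjusted p = 0.0725, limma) passed without DPP4- replicate 5 (-0.32, adjusted p = 0.0099, limma) or DPP4+ replicate 1 (-0.27, adjusted p = 0.0493, limma). With totals set equal it turned to 0.24 (adjusted p = 0.0467, limma). It also passed as lower with DESeq2 (-0.25, adjusted p = 0.0441) and with a replicate block (adjusted p = 0.0186, limma). Oasl1, an interferon-stimulated gene, stood at 143 ± 13.8 against 176 ± 40.05 in the cold and 40.8 ± 6.64 against 114 ± 39.3 at 22 °C, and left the class without DPP4- replicate 2 at 22 °C, where the interaction was 0.96 on the log2 scale. It also left the class with totals set equal.

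Beyond single genes, lists of genes by role were counted in the cold and beside all genes tested, for 33.0% of which the population difference changed with temperature. Markers of progenitor populations were counted first. Of 18 DPP4+ progenitor markers, 16 were higher in DPP4+ cells in the cold and 15 at 22 °C, with Dpp4, Pi16 and Cd34 named above. The interaction passed for 2 upward and 1 downward, among them Cd55, a complement inhibitor (9489 ± 901 against 643 ± 131 in the cold, 4838 ± 851 against 812 ± 49.4 at 22 °C), and the ligand gene Wnt16 (86.4 ± 12.7 against 2.603 ± 1.67, 437 ± 51.3 against 1.94 ± 0.791). Among 16 markers of committed preadipocytes, DPP4+ cells were below DPP4- cells for 15 and above them for 1 at each temperature, and the interaction passed for 8 downward and 3 upward. The amine oxidase Aoc3 stood at 472 ± 40.7 against 5668 ± 1022 in the cold and 1398 ± 140.1 against 5414 ± 678 at 22 °C, a gap that widened, while the chemokine Cxcl14 stood at 3249.5 ± 628 against 15657 ± 1225 and 478 ± 30.4 against 18440.0 ± 3695, a gap that narrowed. Of 12 CD142+ progenitor markers, 9 were lower and 1 higher at each temperature. The genes named in this and the next paragraphs that were not described above were chosen after their values were seen.

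The interaction passed upward more often than downward in lists of protein synthesis, redox and sterols. Of 25 ribosome biogenesis genes, 14 were lower and 4 higher in the cold (7 and 12 with totals set equal), and 21 and 1 at 22 °C, and the interaction passed upward for 18 and downward for none. The median log2 difference was -0.28 in the cold and -0.72 at 22 °C, and with totals set equal 0.19 and -0.10, with 9 upward and none downward. Ncl, which encodes nucleolin, stood at 7850.2 ± 667 against 8768 ± 1358 in the cold and 5643 ± 359 against 9278 ± 607 at 22 °C. Of 20 unfolded protein response genes the interaction passed upward for 11 and downward for none (7 and none with totals set equal). The endoplasmic reticulum chaperone Hyou1 stood at 3865 ± 440.1 against 1819 ± 205 in the cold and 1756 ± 34.8 against 1345 ± 46.8 at 22 °C, and Hspa5 at 27337 ± 2042 against 30076 ± 3458 and 13888 ± 1191 against 24512 ± 1296. Of 21 glutathione and NRF2 genes it passed upward for 10 and downward for none (9 and 1 with totals set equal). Nqo1, a quinone reductase, stood at 495 ± 116 against 32.2 ± 2.87 in the cold and 90.7 ± 6.84 against 34.9 ± 6.55 at 22 °C, and Gclm, a subunit of the enzyme that starts glutathione synthesis, at 1455 ± 279 against 395 ± 71.2 and 533 ± 30.02 against 441 ± 48.1. Of 25 glycolysis and lactate genes it passed upward for 12 and downward for 1 (9 and 3 with totals set equal). The lactate transporter Slc16a3 stood at 614 ± 133 against 22.4 ± 8.13 in the cold and 74.8 ± 5.17 against 26.2 ± 5.97 at 22 °C. Of 23 cholesterol genes it passed upward for 11 and downward for 3 (8 and 4).

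Signal lists moved in both directions, as did all 12994 genes tested (2209 upward and 2082 downward). Of 21 cyclic AMP and CREB target genes the interaction passed upward for 10 and downward for 1, which was Ppargc1a (8 and 1 with totals set equal). The phosphodiesterases Pde4b (303 ± 44.02 against 455 ± 71.6 in the cold, 57.2 ± 3.93 against 435 ± 62.4 at 22 °C) and Pde3b (288 ± 54.8 against 557 ± 44.3, 139.6 ± 9.401 against 649 ± 47.7) were lower in DPP4+ cells at both temperatures by a smaller gap in the cold. Of 27 cytokine and chemokine genes, 9 were higher and 14 lower in the cold against 3 and 13 at 22 °C, and the interaction passed upward for 8 and downward for 2 (8 and 3 with totals set equal). Those upward included Il11 and Il33. Of 4 adrenergic receptor genes tested, of 9 listed, it passed upward for 1 and downward for 2. Of 7 thermogenic genes tested, of 14 listed, it passed upward for Dio2 and Ucp1 and downward for Ppargc1a and Prdm16, a transcription factor of brown and beige fat (43.9 ± 6.37 against 133 ± 22.1 in the cold, 53.4 ± 4.33 against 93.2 ± 13.3 at 22 °C). Of 23 Wnt ligands and receptors it passed upward for 5 and downward for 9, of 15 Wnt inhibitors and targets for 3 and 6, of 41 TGF-beta, activin and BMP family genes for 10 and 8, and of 22 vasoactive peptides and receptors for 3 and 6. These 4 lists held 5 and 9, 2 and 6, 10 and 10, and 3 and 8 with totals set equal. Of 38 genes of the PDGF, FGF, VEGF and IGF families it passed upward for 8 and downward for 8, of 23 semaphorins, netrins and slits for 5 and 6, of 10 Notch pathway genes for 1 and 1, and of 16 NF-kB target genes for 2 and none.

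The downward direction was the more frequent in lists of proliferation, fat storage and mechanical signalling. With totals set equal it was also the more frequent over all 12994 genes, with 2998 downward and 1146 upward. Among 37 genes of the cell cycle, 33 exceeded DPP4- cells and 1 fell below in the cold against 36 and 1 at 22 °C, and the interaction passed downward for 17 and upward for 1 (20 and 1 with totals set equal). The median log2 difference was 2.45 in the cold and 3.26 at 22 °C. Cyclin A2 (Ccna2) stood at 312 ± 64.97 against 16.8 ± 3.72 in the cold and 486 ± 57.99 against 13.3 ± 8.602 at 22 °C. Of 19 cyclin-dependent kinase inhibitors and p53 targets, which act against the cycle, it passed downward for 11 and upward for 3 as well (12 and 1). Cdkn2b, which encodes the inhibitor p15, stood at 25.3 ± 9.48 against 15.5 ± 6.101 and 101 ± 6.73 against 12.8 ± 5.67. Of 22 adipogenic transcription factors it passed downward for 6 and upward for 2 (8 and none). Of 26 mature adipocyte and lipid genes it passed downward for 12 and upward for 4 (13 and 2). Plin1, a coat protein of lipid droplets, stood at 172 ± 41.2 against 129.6 ± 72.99 in the cold and 342 ± 37.1 against 35.8 ± 20.95 at 22 °C. Of 21 matricellular and YAP target genes it passed downward for 8 and upward for 1 (10 and 1). Amotl2, a YAP target, stood at 1173 ± 103 against 596 ± 81.9 in the cold and 3594 ± 252 against 583 ± 50.6 at 22 °C. Of 23 ATF4 and amino acid stress genes it passed downward for 10 and upward for 3 (11 and 3). The 3 upward included the cystine transporter Slc7a11 (4027 ± 943 against 36.1 ± 30.97 in the cold, 80.7 ± 7.89 against 35.5 ± 15.6 at 22 °C) and Ddit4, while the synthetase Asns stood at 682 ± 78.7 against 652 ± 59.7 and 945 ± 83.1 against 494 ± 48.7.

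**Figure D5:**
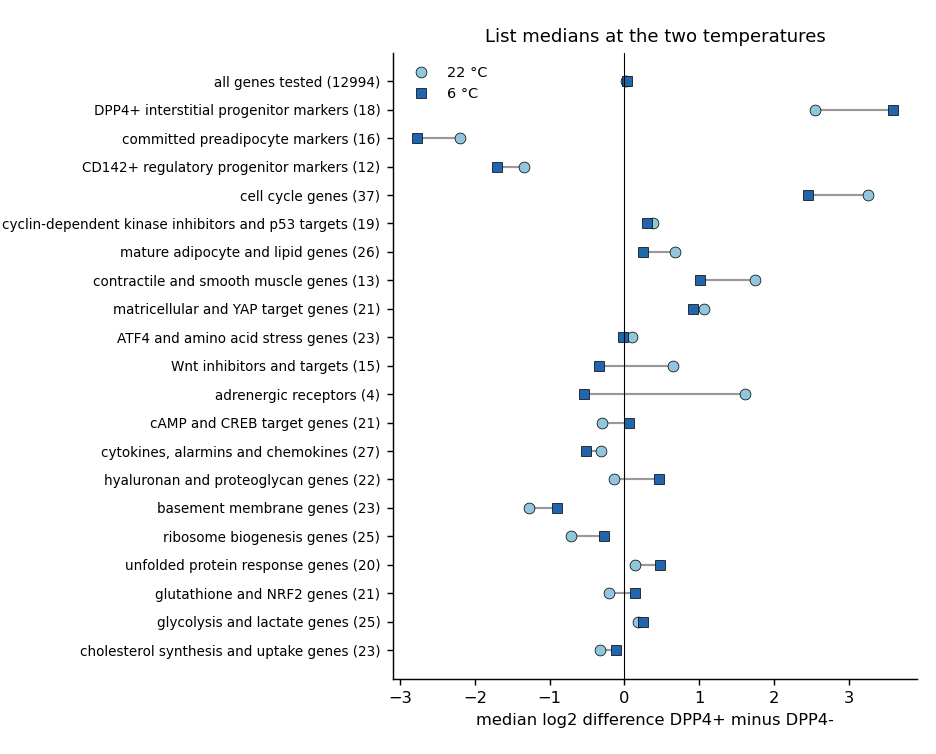
Median log2 difference between DPP4+ and DPP4- cells at 22 °C (circles) and 6 °C (squares) for 20 gene lists and all genes tested, with the number of genes tested in parentheses. The median of all genes stays at 0.03 while that of ribosome biogenesis genes goes from -0.72 to -0.28 and that of cell cycle genes from 3.26 to 2.45.

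Matrix lists held changes in both directions, as did all 12994 genes tested. Among those the interaction passed upward for 2209 and downward for 2082, 33.0% in all, or for 1146 and 2998 with totals set equal. Of 23 basement membrane genes, 16 were lower and 1 was higher at 6 °C and 19 and 1 at 22 °C, and the interaction passed upward for 7 and downward for 1 (5 and 3 with totals set equal). Col4a1 was 8.01-fold lower in the cold and 15.7-fold lower at 22 °C (interaction 0.96, adjusted p = 1.07e-06, limma). Of 30 interstitial collagens and fibre genes the interaction passed upward for 4 and downward for 3, of 22 hyaluronan and proteoglycan genes for 7 and 1, and of 29 matrix proteases and inhibitors for 8 and 7, or for 4 and 5, 5 and 3, and 5 and 7 with totals set equal. Of 26 immediate early genes, which are known to be induced during tissue handling, 22 were lower in DPP4+ cells at each temperature and the interaction passed upward for 3 and downward for 2. Of 27 interferon-stimulated genes, 24 were lower at each temperature (22 in the cold with totals set equal) and it passed upward for 2 and downward for 4 (2 and 8). Of 41 nuclear respiratory chain genes, 32 were higher in the cold and 25 at 22 °C, none was lower, and it passed upward for 7 and downward for none, or for 1 and 1 with totals set equal. Of 19 sphingolipid synthesis genes, the list of Sptssb, it passed upward for 7 and downward for 2 (4 and 3 with totals set equal). Of 15 heat shock chaperones it passed upward for 5 and downward for 1 (2 and 2), of 28 steroid, retinoid and vitamin D genes for 4 and 6, of 17 clock genes for 3 and 3, of 14 complement genes for 1 and 1, and of 13 contractile genes for 2 and 3.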

How the data were processed

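RNA of the 20 libraries was counted per gene by the authors. Per the submitters' processing notes, featureCounts 1.4.6 and HISAT2 2.0.1 were used with Trim Galore 0.4.1 and DESeq2 1.6.3, on builds named GRCm38 and mm10. The deposited values are a signal per gene, read counts that the authors divided by 1 size factor per library. All values are whole reads times that factor (100% within 0.1 read), so depth is known. How counting treated strand is not given in the sources used here, so genes that overlap another on the opposite strand are uncertain. Of 27179 genes, 958 had no symbol, 26 symbols stored as dates were restored, and 25275 identifiers matched the RefSeq table.

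A linear model of the 4 group means was fitted to log2(value + 1) over all 20 libraries with limma 3.58.1 (R 4.3.3, eBayes with trend and robust, two-sided), with Benjamini-Hochberg adjustment over the 12994 genes with a mean of at least 10 over the cold libraries. Log2 differences understate the change of low genes, and ratios are of mean normalized reads, with 3 reads over a group as the floor. Intervals are 95% intervals and those of counts cover counting error only. The steps were tested on simulated data of 12994 genes, with known scaling and no group difference beyond the changed genes. Of genes changed 2-fold between the populations at 6 °C, 92.5% of 67 were recovered, with 6 false calls among all 183. Of genes whose difference changed 2-fold between temperatures, 77.6% of 67 were recovered, with 8 false calls among all 156. In the real data 74.3% of genes differed in the cold and the scaling is uncertain, so these rates may not hold there.

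Named genes were, for each class and direction, the first 6 by size of interaction (for reversed genes by the smaller difference) that kept the class as deposited, with totals set equal, with TMM and with quantile normalization and reached a mean of 100 normalized reads in a group. Predicted genes were passed over. Up to 3 class members of each gene list, by smallest interaction p, were added. Dpp4, Pi16, Sparcl1, Col4a1, Pdgfra, Pdgfrb, Ly6a, Cd34, Il33, Adrb3, Ucp1 and Ccl2 were added as well. Some genes that the rule took are not reported here. The comparison, the lists and some genes were chosen with earlier results of these data known. Alternatives were other filters, pseudocounts and scalings, edgeR 4.0.16 and DESeq2 1.42.0 on the recovered reads, sample weights, a replicate block, other fold limits and leaving out each library. Figures were drawn with matplotlib 3.10.9.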

Additional observations from a re-analysis of the deposited data

Results flagged for a closer look

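The population difference changed with temperature for 62 of the 69 named genes, by the interaction term in limma. The values are the log2 difference between DPP4+ and DPP4- cells at 6 °C minus that at 22 °C, and most of the genes were named because this value was large. Among genes higher in DPP4+ cells in the cold only it was 8.80 for Ren1, 8.46 for Ramp3, 7.70 for Il11, 3.69 for Pde4d, 3.47 for Ddit4, 3.38 for Il1rl1 and 3.31 for Crem. In the same class it was 3.12 for Gsta4, 2.81 for Dgat1, 2.38 for Spon2, 2.31 for Vcan, 2.04 for Hapln4 and 1.89 for Efnb2. The smallest values there were 1.59 for Pmvk, 1.54 for Bambi, 1.49 for Synpo2, 1.17 for Fzd1, 1.12 for Tgfb1 and 1.06 for Notch2. Among genes lower in DPP4+ cells in the cold only it was -2.19 for Adamts15, -1.46 for Abcg1, -1.34 for Ppargc1a and -1.22 for Acvr2a. Among genes higher in DPP4+ cells at 22 °C only it was -3.77 for Cyp7b1, -2.31 for Brca2, -1.83 for Cdo1, -1.67 for Pik3ip1, -1.48 for Aldh1l1, -1.31 for Vegfb and -1.06 for Klf15. Fzd8 of the same class had -1.02. Among genes lower in DPP4+ cells at 22 °C only it was 2.27 for Srxn1, 1.16 for Txnrd1 and 1.12 for Oasl1. Among genes that turned from lower to higher it was 11.19 for Sptssb, 8.93 for Dio2, 4.86 for Liph, 3.90 for Tll1, 3.37 for Adamtsl2, 3.18 for Ucp2 and 2.23 for Csf1r. In the same class it was 2.15 for Il33 and 1.88 for Hsph1. Among genes that turned from higher to lower it was -4.27 for Lbh, -4.11 for Adra1d, -3.19 for Thbs1, -3.13 for Car3, -3.10 for Trim66, -2.71 for Cdc42ep3 and -2.47 for Pth1r. In the same class it was -2.30 for Tns3, -2.28 for Adm, -2.27 for Mmp11, -2.20 for Nkd2, -2.13 for Fzd4, -1.88 for Gpd1 and -1.87 for Nrp2. The last of them, Dkk2, had -1.44. Outside the classes it was 0.96 for Col4a1, -1.23 for Pdgfra, -0.96 for Pdgfrb and 2.06 for Ucp1.

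In 18 of 276 groups of 5 libraries the highest or lowest library stood apart from the other 4 by Dixon's criterion, which chance meets in about 1 in 20 groups. The value of that library in normalized reads and its side are given in parentheses. In DPP4+ cells at 6 °C this was replicate 5 for Efnb2 (731, low), Car3 (146, low), Klf15 (66.6, high) and Srxn1 (9351, low), replicate 4 for Gpd1 (13.6, low) and replicate 2 for Sparcl1 (343, high). In DPP4- cells at 6 °C this was replicate 2 for Ren1 (5.45, high), replicate 1 for Hapln4 (25.5, high) and Dpp4 (137, high) and replicate 5 for Ucp1 (23.0, high). In DPP4+ cells at 22 °C this was replicate 2 for Adamtsl2 (32.1, high), replicate 1 for Il33 (842, low) and replicate 5 for Bambi (109.8, high). In DPP4- cells at 22 °C this was replicate 2 for Ren1 (1.501, high), replicate 1 for Mmp11 (251, high) and Dpp4 (105, high), replicate 3 for Ucp1 (1.26, high) and replicate 5 for Ccl2 (12607, high). DPP4+ replicate 5 at 6 °C is the library described above as nearest to the 22 °C mean of its population for many of the class genes.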

How the results depend on the processing

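Of 4420 values of 136 results on named genes under the alternatives, 4391 kept their side of the threshold and, where they passed, their direction. Another 12 no longer passed, 15 newly passed and 2 turned. Both turned with totals set equal, where the difference in the cold became 0.46 for Cyp7b1 and 0.24 for Txnrd1, by the construction of that scaling. Many of these genes were named because they kept their class under 4 scalings or had a small interaction p. Their stability was thus partly fixed by the choice. Of all 384 class genes, 63 kept their class under the 4 scalings. With totals set equal 8238 genes exceeded DPP4- cells in the cold and 2438 fell below them, and there were 43 genes gained higher, 157 lost from higher, 15 lost from lower and 26 reversed to higher. Of the 384 class genes, 96 then stayed in their class, 262 with quantile normalization, 374 with TMM, 360 with edgeR and 353 with DESeq2. Quantile normalization left 58 genes lost from higher. With no filter on low values 50 genes were lost from lower and 95 reversed to lower, over more genes. Class limits of 3-fold left 41 and 17 genes gained, 17 and 6 lost and 4 and 3 reversed, each higher or to higher first, and limits of 1.5-fold gave 154 and 171 gained and 240 and 79 lost. Leaving out each library gave 4864 to 5099 genes higher and 4483 to 4671 lower in the cold, 74 to 95 and 65 to 81 gained, 73 to 102 and 27 to 36 lost, and 38 to 47 and 52 to 67 reversed. Of 58 named genes in a class, 29 left it with totals set equal, 1 with TMM (Ramp3) and 12 with quantile normalization, among them Fzd8, Il33, Notch2, Srxn1, Txnrd1 and Vcan beside those given above. With quantile normalization Srxn1 (0.69) and Ly6a (0.68) were higher in DPP4+ cells in the cold. Of changed calls not given above, the interaction passed for Cd34 without DPP4+ replicate 1 (adjusted p = 0.0254), for Dpp4 without DPP4- replicate 1 (0.0122) and for Pi16 without DPP4- replicate 2 at 6 °C (0.0228, limma).

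With a replicate block, 5031 genes were higher in the cold and the classes held 83, 76, 90, 29, 39 and 59 genes, all within 1.5 times of the values without it. The deviations of same-numbered libraries correlated at 0.02 to 0.11 in the cold and 0.03 to 0.16 at 22 °C, not above 0.1 for every pair, so the numbers were not taken as pairs. Each cold DPP4+ library correlated best with its own number, a hint from the data and not the design, while DPP4- replicate 1 at 6 °C and 3 of the DPP4+ libraries at 22 °C did not. Cold libraries held 8.49 to 18.8 M reads. Intervals were wide for genes near 0 in a group, such as Ren1, Ramp3, Sptssb and Ucp1 at 22 °C. That of Car3, with group means of at least 219, was wide as well (0.72 to 2.50 at 22 °C on the log2 scale).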

Other observations

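Beyond the genes named by the rule, 38 class genes kept their class under all 4 scalings, mostly at lower levels, and the following were chosen after their values were seen. Values are normalized reads in DPP4+ against DPP4- cells (mean ± SD, n = 5 libraries). Genes of secreted peptides were among those with the larger change. Nppc, which encodes C-type natriuretic peptide, a vasodilator that also acts on fat cells, stood at 62.1 ± 18.3 against 4.93 ± 3.83 at 6 °C and 0.829 ± 1.14 against 4.03 ± 2.24 at 22 °C. Enho, which encodes the peptide adropin, stood at 21.1 ± 3.99 against 21.6 ± 6.69 at 6 °C and 2.52 ± 0.644 against 19.8 ± 4.49 at 22 °C, so that its difference was lost in the cold. Masp1, a protease of the lectin pathway of complement, stood at 56.8 ± 14.6 against 34.01 ± 8.55 at 6 °C and 6.1000 ± 2.33 against 17.8 ± 7.37 at 22 °C. Apold1, a gene known from endothelium, stood at 86.4 ± 19.9 against 46.5 ± 21.9 at 6 °C and 12.2 ± 2.44 against 39.3 ± 9.75 at 22 °C, and Havcr2, an inhibitory immune receptor gene, at 26.4 ± 6.797 against 11.8 ± 5.66 at 6 °C and 2.87 ± 1.39 against 16.9 ± 5.297 at 22 °C. Macrophage, lymphocyte and endothelial marker sums in these libraries are given above, and their part in the values of Havcr2 and Apold1 was not tested.

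Other genes had lower levels in DPP4+ than in DPP4- cells in the cold or lost a higher level. The vasopressin receptor gene Avpr1a stood at 73.7 ± 2.46 against 268 ± 48.000 at 6 °C and 759 ± 49.9 against 406 ± 70.7 at 22 °C, from higher to lower in DPP4+ cells. Prkar2b, a regulatory subunit of protein kinase A, the kinase that cyclic AMP activates, stood at 138 ± 28.5 against 431 ± 109.5 at 6 °C and 509 ± 56.8 against 301 ± 79.7 at 22 °C. Tmem119, a membrane protein gene known from osteoblasts and microglia, stood at 156 ± 21.3 against 846 ± 159.7 at 6 °C and 1339 ± 170.0 against 797 ± 73.96 at 22 °C. The adipocyte galectin gene Lgals12 stood at 5.94 ± 1.82 against 24.7 ± 9.71 at 6 °C and 45.2 ± 6.75 against 8.62 ± 4.53 at 22 °C, and Arxes2, a gene induced in adipocyte differentiation, at 30.3 ± 9.52 against 63.98 ± 8.87 at 6 °C and 84.5 ± 13.3 against 32.1 ± 10.4 at 22 °C. The iron exporter gene Slc40a1 stood at 8.95 ± 2.56 against 26.3 ± 9.96 at 6 °C and 33.2 ± 5.898 against 17.8 ± 3.31 at 22 °C. The actin cytoskeleton genes Fblim1 and Nexn turned as well, with Fblim1 at 53.4 ± 11.01 against 122 ± 14.7 at 6 °C and 236 ± 27.96 against 139 ± 5.41 at 22 °C and Nexn at 12.2 ± 2.34 against 45.3 ± 3.47 at 6 °C and 101 ± 17.4 against 51.98 ± 9.24 at 22 °C. Slc36a2, an amino acid transporter known from thermogenic fat cells, lost its difference and stood at 29.2 ± 7.99 against 37.5 ± 17.8 at 6 °C and 81.5 ± 11.6 against 24.1 ± 10.02 at 22 °C.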
